A study of Mus musculus with 157 samples.

Results

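The 10 genes described here, Cxcl10, Ifit1, Ifit2, Ifit3, Rsad2, Oasl1, Isg15, Mx1, Rtp4 and Bst2, encode a chemokine and antiviral effectors, and they were chosen because Cxcl10 and Ifit1 were higher in the cells given the ATM inhibitor KU55933. All 10 were found among the 19600 genes of the table and all 10 passed the filter on low counts. The values that chose them are those of etoposide with KU55933 set against etoposide alone, so that contrast is given as a description, with no test. Ribosome association was measured in splenic B cells of C57BL/6Babr mice by counting the 3′ ends of mRNAs in the fractions of a sucrose gradient, in which an mRNA sediments further the more ribosomes it carries. The LPS group was cultured for 48 h with 10 µg/ml LPS, a bacterial product that activates B cells. The LPS+ET group also received 20 µM etoposide, a topoisomerase II poison that breaks DNA, for 4 h. The LPS+ET+KU group received LPS for 47 h, then 10 µM KU55933 for 1 h and 20 µM etoposide for 4 h. Every group carries LPS, every gradient was made after 3 min in 100 µg/ml cycloheximide, and no group received KU55933 without etoposide, so a response to the inhibitor alone cannot be told apart from one that needs DNA breaks.

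Each treatment has 4 gradients of 13 fractions, numbered 4 to 16. Fractions 4 to 7 hold monosomes, 8 to 10 light polysomes and 11 to 16 heavy polysomes. The gradients are named here by treatment and by the library pool in the column headers (LUL15, LUL16, LUL17 and LUL18), each pool holding 1 gradient of each treatment. The counts of the 13 fractions were summed per gradient and divided by the gradient's total to give counts per 1000000 counts (CPM), the unit of every level below. The 12 gradients held between 6404957 and 21449781 counts, and the 156 single-fraction libraries held between 14724 and 4170688 (median 811932). The libraries of the fractions were made from equal RNA concentrations, so their totals do not measure how much mRNA a fraction held. Cdkn1a, a p53 target induced by DNA damage, checked the etoposide labels: its level was 26.9 ± 4.29 CPM (SD, n = 4) in LPS, 722 ± 167 in LPS+ET and 662 ± 184 with the inhibitor. The groups with and without the inhibitor overlapped for it, so it does not check the inhibitor label. The LPS+ET+KU gradient of pool LUL16 stood apart, being the lowest of its group for 8 of the 10 genes, whereas 34.1% of all genes tested were lowest there. Values without pool LUL16 are therefore given where they change a call or a size. The summed level of 6 B cell markers was 2059 to 2716 CPM in LPS, 1565 to 2025 in LPS+ET and 1788 to 2469 with the inhibitor.

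Interferons released by infected or activated cells bind their receptors, and the kinases Jak1 and Tyk2 then activate transcription factors, Stat2 among them, which join Irf9 and bind the interferon-stimulated response element (ISRE) in the promoters of antiviral genes. Irf3 and Irf7 act on similar elements after pattern receptors have sensed nucleic acid or LPS, and NF-κB acts with them at the Cxcl10 promoter. B cells, like most cells, express the antiviral genes at a low level that interferon raises. DNA damage kinases, ATM among them, are known to act on NF-κB and on p53.

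The promoter sequences are shown because 6 of the 8 members found in the RefSeq promoter table (build GRCm38.p6, 250 bases before to 50 bases after each start) shared a motif that the rule did not use. The ISRE was searched on both strands as GAAANNGAAA, and it matched 75.0% of those 8 genes and 3.44% of the 32851 promoters. The capitals mark the motif on the gene's own strand, and TTTC repeats are the same motif on the opposite strand. Mx1 and Rtp4 had no entry.
Cxcl10, chr5:92349083-92349112, minus strand, bases -213 to -204 from the start: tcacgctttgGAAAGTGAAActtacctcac
Ifit1, chr19:34640775-34640804, plus strand, bases -104 to -95: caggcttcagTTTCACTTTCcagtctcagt
Ifit1, chr19:34640794-34640823, plus strand, bases -85 to -76: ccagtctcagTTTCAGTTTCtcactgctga
Ifit3, chr19:34583363-34583392, plus strand, bases -156 to -147: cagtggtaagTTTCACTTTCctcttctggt
Ifit3, chr19:34583397-34583426, plus strand, bases -122 to -113: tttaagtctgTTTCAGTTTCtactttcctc
Rsad2, chr12:26456553-26456582, minus strand, bases -120 to -111: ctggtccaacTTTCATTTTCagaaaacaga
Isg15, chr4:156200877-156200906, minus strand, bases -78 to -69: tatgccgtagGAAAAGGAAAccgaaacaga
Bst2, chr8:71537583-71537612, minus strand, bases -130 to -121: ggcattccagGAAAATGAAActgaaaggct

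Isg15 had 3 overlapping matches and Bst2 had 2, of which the first is shown. The promoters of Ifit2 and Oasl1 held no match in these windows. The κB motif, searched on both strands, matched 3 of the 8 genes (37.5%) and 4.51% of all promoters. Cxcl10 held it at a pair of places, shown with the motif in capitals because no other member had more than 1.
Cxcl10, chr5:92349029-92349058, minus strand, bases -159 to -150: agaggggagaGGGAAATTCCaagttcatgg
Cxcl10, chr5:92348973-92349002, minus strand, bases -103 to -94: cggtttacagGGGACTTCCCtcgggttgcg

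The matches are letters in a window and were not tested as binding sites. Ifit2, Ifit3 and Ifit1 lie side by side on chromosome 19, at 34550694 to 34576419, 34583531 to 34588731 and 34640871 to 34650009, all on the plus strand. The counted 3′ ends of the 10 genes lay in the last exon or close beyond its annotated end. The counted end of Cxcl10 (chromosome 5, 92346638 to 92348889, minus strand) also lies within Art3 on the other strand. No other gene shared 40 of the last 60 annotated bases of a member. The counted ends of Ifit2, Ifit3, Isg15 and Bst2 lay away from the annotated end. The bases just before those counted ends were therefore not fully searched for copies in other genes. Ifit3 and its neighbour Ifit3b are near copies, so counts of Ifit3 are uncertain to that extent.

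Cxcl10, Ifit1 and Rsad2 each had similar levels in LPS and in LPS+ET, and higher levels in LPS+ET+KU. Cxcl10 encodes a secreted chemokine that draws Cxcr3-bearing T cells and NK cells. Its level in pools LUL15, LUL16, LUL17 and LUL18 was 3.26, 2.68, 3.69 and 2.83 CPM in LPS, and 4.19, 3.75, 2.48 and 2.31 CPM in LPS+ET. With the inhibitor it was 78.8, 11.2, 64.2 and 72.4 CPM. Every LPS+ET+KU gradient was above every other gradient, and that of pool LUL16 was far below its 3 partners. The counts behind these levels were 34 to 52 per gradient in LPS, 24 to 48 in LPS+ET and 240 to 977 with the inhibitor. The mean was 3.11 ± 0.456, 3.18 ± 0.930 and 56.6 ± 30.9 CPM (SD, n = 4), a ratio of 17.8 between LPS+ET+KU and LPS+ET. In these bulk samples a gene carried by more of the cells and one carried at more copies per cell cannot be told apart.

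Ifit1 encodes a protein that binds viral RNA lacking the host's cap methylation. Its levels in the same pool order were 76.2, 66.9, 83.6 and 80.1 CPM in LPS, 78.3, 77.9, 80.4 and 58.4 in LPS+ET, and 520, 163, 435 and 368 in LPS+ET+KU. The LPS and LPS+ET gradients overlapped and the LPS+ET+KU gradients lay above both. Rsad2 encodes viperin, an enzyme that makes a chain-terminating nucleotide. It was at 17.7, 13.8, 17.2 and 19.6 CPM in LPS, 17.5, 11.6, 20.6 and 15.0 in LPS+ET, and 74.8, 39.1, 94.2 and 74.5 in LPS+ET+KU. It had the same order as Ifit1, with the pool LUL16 gradient again the lowest of the inhibitor group. The ratio of the group means, LPS+ET+KU over LPS+ET, was 5.04 for Ifit1 and 4.37 for Rsad2.

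**Figure D1:**
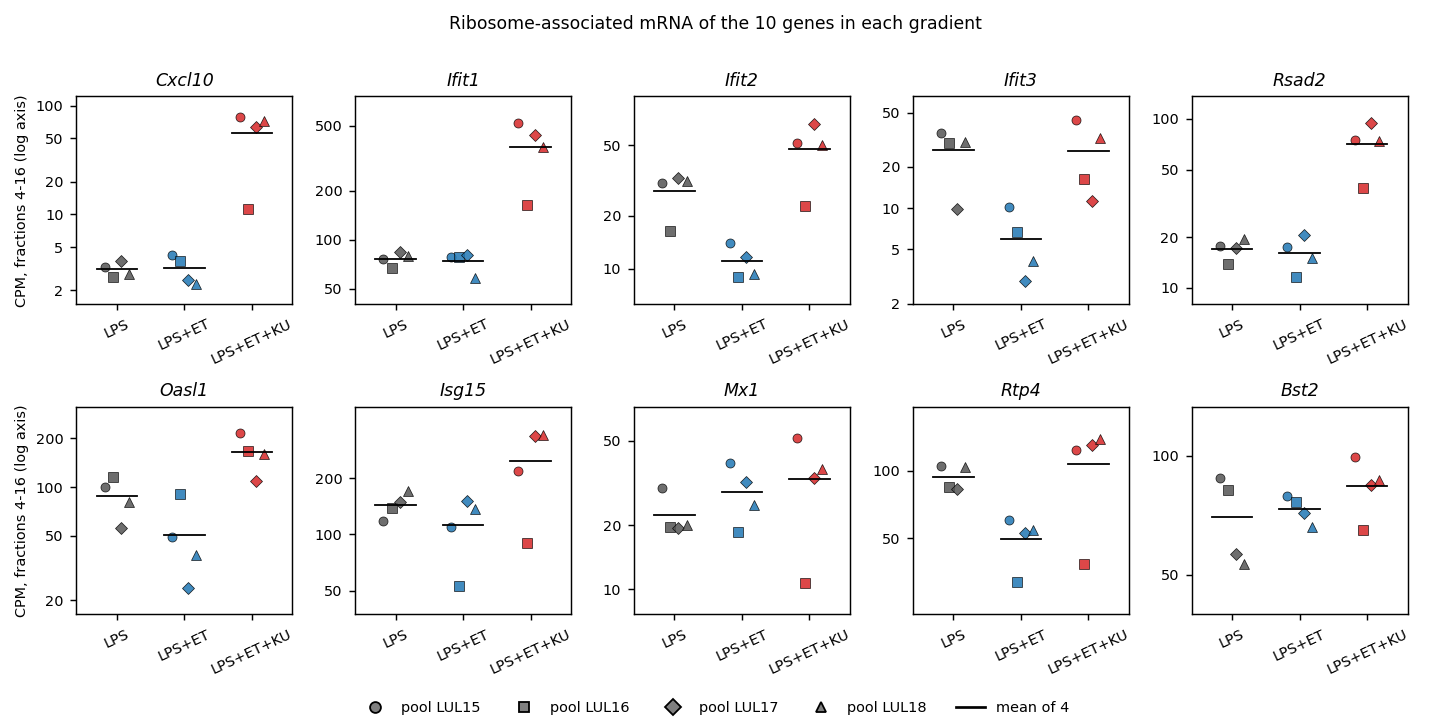
Level of each of the 10 genes (CPM, log axis) in the 12 gradients, grouped by treatment, with the marker showing the library pool and the line the mean of 4 gradients. Cxcl10, Ifit1 and Rsad2 were higher in all 4 LPS+ET+KU gradients than in all 8 others, whereas the 3 groups of Mx1 and Bst2 overlapped.

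Ifit2, Ifit3, Oasl1 and Rtp4 had another pattern, being lower in LPS+ET than in LPS. Ifit2, a relative of Ifit1 that also binds RNA, was at 30.6, 16.5, 32.6 and 31.3 CPM in LPS and at 14.1, 9.06, 11.7 and 9.40 in LPS+ET. It was at 51.9, 22.7, 66.0 and 50.1 CPM in LPS+ET+KU. All LPS+ET gradients lay below all others, and the LPS and LPS+ET+KU gradients overlapped through pool LUL16 alone. Ifit3, a partner of Ifit1 in RNA binding, was at 35.6, 29.9, 9.87 and 30.3 CPM in LPS, 10.1, 6.71, 2.95 and 4.10 in LPS+ET, and 44.1, 16.4, 11.2 and 32.4 in LPS+ET+KU. The LPS and LPS+ET+KU gradients of Ifit3 overlapped, and the lowest LPS gradient, of pool LUL17, lay within the LPS+ET range.

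Oasl1 encodes a protein related to the oligoadenylate synthetases that restrains Irf7 synthesis. It was at 100, 116, 55.6 and 81.0 CPM in LPS, 49.2, 90.7, 23.7 and 37.8 in LPS+ET, and 217, 168, 109 and 161 in LPS+ET+KU. Within each pool the order was the same, LPS+ET lowest and LPS+ET+KU highest, although across pools the LPS group overlapped with each of the others. Rtp4, an interferon-induced member of the receptor transporter proteins, was at 105, 84.5, 83.1 and 103.7 CPM in LPS, 59.9995, 31.9, 52.7 and 54.5 in LPS+ET, and 124, 38.3, 130 and 139 in LPS+ET+KU. All LPS+ET gradients of Rtp4 lay below all LPS gradients, as those of Ifit2 did and those of 9.08% of all genes, and in LPS+ET+KU the pool LUL16 gradient lay far from the other 3.

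Isg15 encodes a ubiquitin-like modifier, and Mx1 and Bst2 encode a dynamin-like GTPase and tetherin, which holds budding virus at the cell surface. The Mx1 gene of most C57BL/6 strains is known to lack exons, so its mRNA makes no working protein. Isg15 was at 119, 139, 150 and 172 CPM in LPS, 110, 53.1, 152 and 137 in LPS+ET, and 219, 90.1, 338 and 341 in LPS+ET+KU. In pools LUL15, LUL17 and LUL18 the LPS+ET+KU gradient was above both others, and in pool LUL16 it was below LPS. Mx1 was at 30.0, 19.7, 19.4 and 20.1 CPM in LPS, 39.2, 18.6, 31.98 and 24.9 in LPS+ET, and 51.6, 10.7, 33.4 and 36.98 in LPS+ET+KU. Bst2 was at 87.9, 82.1, 56.5 and 53.3 CPM in LPS, 79.0, 76.3, 71.7 and 66.1 in LPS+ET, and 99.2, 65.0, 84.3 and 86.7 in LPS+ET+KU. The 3 groups overlapped for both genes, and in pool LUL16 the inhibitor gradient was the lowest of the 3.

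The contrast that chose the genes, LPS+ET+KU against LPS+ET, is described by its size alone. The fitted log2 differences were 4.17 for Cxcl10 (SE 0.49), 2.33 for Ifit1, 2.13 for Rsad2 (SE 0.26), 2.12 for Ifit2, 2.13 for Ifit3 (SE 0.49) and 1.69 for Oasl1. They were 1.14 for Isg15, 1.12 for Rtp4, 0.20 for Mx1 and 0.19 for Bst2. Without pool LUL16 they ran from 0.33 (Bst2) and 0.35 (Mx1) to 2.61 (Ifit1) and 4.60 (Cxcl10). The groups were apart, with LPS+ET+KU above, for 6 of the 10 genes (Cxcl10, Ifit1, Ifit2, Ifit3, Rsad2 and Oasl1), and 4.07% of all genes had this pattern. Of the 12755 genes tested, 0.455% passed an adjusted p under 0.01 in this contrast, which is given as background to the choice of the members. Within pools, the inhibitor gradient was higher in 4 of 4 pools for all members but Mx1 and Bst2, which were lower in pool LUL16.

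**Figure D2:**
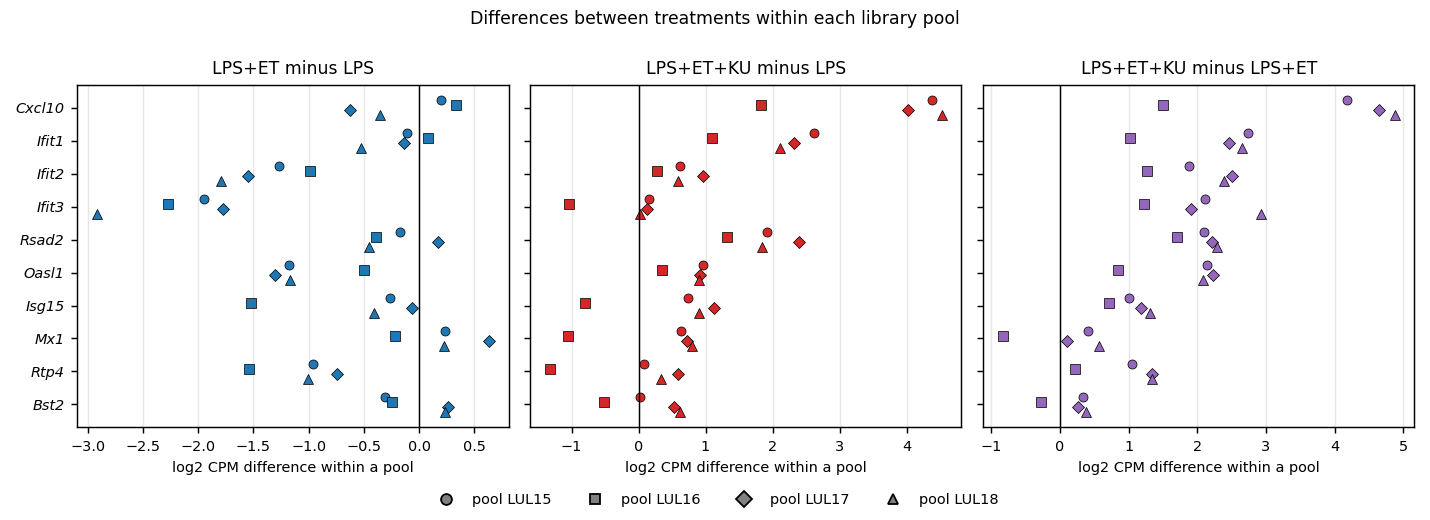
Differences of log2 CPM between the treatments of the same pool, 1 panel per comparison and 1 marker per pool (LUL15 to LUL18), with the line at 0 marking no difference. In the panel of LPS+ET+KU against LPS+ET the Cxcl10 differences were 4.18, 1.499, 4.64 and 4.88, and in that of LPS+ET against LPS all 4 differences of Ifit2, Ifit3, Oasl1, Isg15 and Rtp4 were below 0.

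LPS+ET was compared with LPS to describe these genes after 4 h of etoposide without the inhibitor. DNA breaks and ATM activity were not measured in these libraries. Ifit2 fell 2.71-fold (log2 difference -1.44, SE 0.30, edgeR quasi-likelihood adjusted p 0.00385) and Ifit3 fell 4.90-fold (-2.29, SE 0.49, adjusted p 0.00421). These 2 of 10 were the members called lower, against 4.81% of all genes tested, and 0 were called higher, by edgeR, by DESeq2 or at an unadjusted p under 0.05. Cxcl10 (-0.10, SE 0.47), Ifit1 (-0.17, SE 0.27), Rsad2 (-0.19, SE 0.26) and Bst2 (-0.05, SE 0.19) had estimates near 0, Isg15 was at -0.47 (SE 0.39) and Mx1 at 0.25 (SE 0.35). Oasl1 was at -0.93 (SE 0.36, adjusted p 0.0817) and Rtp4 at -1.04 (SE 0.33, adjusted p 0.0368). The gradients of a pool are paired, and with the pool as a replicate block both passed the test, Oasl1 at -1.01 (adjusted p 0.000904) and Rtp4 at -1.10 (adjusted p 0.00195), which makes 4 of 10 lower against 12.8% of all genes. The median log2 difference of the 10 genes was -0.33, and that of all genes 0.03.

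The calls of Ifit2 and Ifit3 in this comparison lay near the threshold. Ifit2 lost its call without the LPS gradient of pool LUL15 (adjusted p 0.0106), LUL17 (0.011) or LUL18 (0.0127) and when LPS+ET of pool LUL16 (0.0104) or LUL18 (0.0153) was dropped. Ifit3 lost it without the LPS gradient of pool LUL15 (0.013), LUL16 (0.012) or LUL18 (0.0124), without the LPS+ET gradient of pool LUL17 (0.0139) or LUL18 (0.0178), and without all of pool LUL16 (0.0154). Oasl1 gained one when the pool LUL16 gradient of LPS+ET was dropped (0.00501). Rtp4 gained one without all of pool LUL16 (-0.92, 0.00167) and when the 8 compared gradients were fitted alone (0.00436). Without that pool Ifit2 and Rtp4 were the 2 members called lower. With each fraction given equal weight neither Ifit2 (-1.30, limma adjusted p 0.017) nor Ifit3 (-1.84, 0.0165) passed.

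With KU55933 present, Cxcl10, Ifit1 and Rsad2 were called higher than in LPS, 3 of 10 against 6.25% of all genes tested. The LPS+ET+KU gradients are the ones in which the members were chosen, so these calls are not independent evidence of a rise. Cxcl10 was 16.8-fold higher (log2 4.07, SE 0.48, edgeR adjusted p 9.96e-05), Ifit1 4.45-fold (2.15, SE 0.28, adjusted p 0.000187) and Rsad2 3.83-fold (1.94, SE 0.26, adjusted p 0.000247). All 3 calls held when any 1 gradient was left out, and without pool LUL16 the log2 differences were 4.36, 2.35 and 2.06. Ifit2 was at 0.68 (SE 0.29, adjusted p 0.112) and Oasl1 at 0.76 (SE 0.36, adjusted p 0.145), and with the replicate block they passed at 0.63 (adjusted p 0.00883) and 0.81 (adjusted p 0.00382), making 5 of 10 against 14.9% of all genes. Without pool LUL16 they stood at 0.73 (adjusted p 0.011) and 0.93 (0.038).

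The other members did not pass in this comparison. Isg15 was at 0.67 (SE 0.39, adjusted p 0.242), Mx1 at 0.45 (SE 0.35), Bst2 at 0.14 (SE 0.19), Rtp4 at 0.08 (SE 0.32) and Ifit3 at -0.17 (SE 0.45). Without pool LUL16, Isg15 was at 0.94 (adjusted p 0.0236), Mx1 at 0.70 (0.0266), Rtp4 at 0.33 (0.137), Bst2 at 0.36 (0.148) and Ifit3 at 0.08 (0.928). Thus Ifit3 and Rtp4, at 26.4 ± 11.3 and 94.2 ± 12.0 CPM (SD, n = 4) in LPS, were at 26.02 ± 15.0 and 108 ± 46.7 CPM in LPS+ET+KU, with overlapping gradients. Of the 10 members only Cxcl10, Ifit1 and Rsad2 had LPS+ET+KU gradients that all exceeded the LPS gradients, as 17.9% of all genes did. The comparisons with LPS share the LPS gradients, and they share the treated gradients with the contrast that chose the genes.

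The same comparisons were made within the monosomes and within the heavy polysomes. Among heavy polysomes, Ifit2 (log2 -1.34, SE 0.28, adjusted p 0.00384) and Ifit3 (-2.42, SE 0.50, adjusted p 0.00365) were lower in LPS+ET than in LPS, 2 of 10 against 3.55% of genes, and each lost the call without some single gradients. In the monosomes edgeR called 0 members lower (3.08% of genes were) and DESeq2 called 0. At an unadjusted p under 0.05 there were 4, and 2863 of 8932 genes were under it in either direction. With the replicate block, 4 were called, against 10.7%, namely Ifit2 (-1.07, adjusted p 0.000762), Ifit3 (-1.51, 0.00212), Oasl1 (-0.61, 0.00621) and Rtp4 (-0.92, 0.00496). The block added Rtp4 (-1.04, adjusted p 0.00599) among heavy polysomes, 3 of 10 against 10.1%. The single gradients without which the heavy polysome calls were lost were, for Ifit2, LPS of pools LUL17 and LUL18 and LPS+ET of pools LUL17 and LUL18 (adjusted p 0.0116 to 0.0181). For Ifit3 they were LPS of pools LUL15, LUL16 and LUL18 and LPS+ET of pools LUL17 and LUL18 (0.0109 to 0.0165). Without all of pool LUL16, Ifit2 was the 1 member called lower in either class (monosomes -1.27, adjusted p 0.00284, heavy polysomes -1.49, 0.000628), and Ifit3 was at -2.35 in heavy polysomes (0.0145).

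In LPS+ET+KU, Cxcl10 was higher than in LPS in both classes, by 3.76 (SE 0.60, edgeR adjusted p 0.00101) in monosomes and 4.42 (SE 0.58, 0.000215) in heavy polysomes on the log2 scale. Ifit1 was higher by 2.96 (SE 0.35, adjusted p 0.000143) in monosomes and 2.07 (SE 0.31, 0.000525) in heavy polysomes. Rsad2 was higher by 2.12 in heavy polysomes (SE 0.22, adjusted p 3.87e-05) and at 1.61 in monosomes (adjusted p 0.0154, with the replicate block 0.000355). The counts called higher were 2 of 10 in monosomes against 3.69% of genes, and 3 of 10 in heavy polysomes against 4.94%. The members were chosen in these LPS+ET+KU gradients, so the calls in either class are not independent evidence of a rise. Ifit2 stood at 1.38 in monosomes (adjusted p 0.0252, with the block 4.25e-06) and at 0.39 in heavy polysomes (adjusted p 0.331). Oasl1 stood at 0.87 in monosomes (adjusted p 0.0391), and the block brought it past the threshold in both classes (monosomes 8.63e-05, heavy polysomes 1.02 at 0.00744), so that 5 of 10 passed in monosomes (13.1% of genes) and 4 in heavy polysomes (11.1%). Without the LPS+ET+KU gradient of pool LUL16, or without that whole pool, the number called in monosomes was 4. Ifit2 (1.36, adjusted p 0.00105) and Rsad2 (1.84, 0.00405) were the added members without the pool, and in heavy polysomes the 3 calls held (log2 2.20 to 4.72).

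The distribution of each mRNA along the gradient was then examined, with every library scaled to its total so that the 13 fractions weigh equally. The share of an mRNA in a fraction is its level there over the sum of its levels in the 13 fractions. Cxcl10, whose reading frame has 98 codons, was spread over the light polysomes, with 18.8 ± 3.91% (SD, n = 4) of its profile in fraction 10 in LPS+ET+KU. Its highest fraction was 10, 10, 11 and 10 in the 4 pools. In that fraction its mean level was 118 CPM, against 7.22 CPM in LPS. The mean level in LPS+ET+KU was above that of LPS in 13 of 13 fractions, and in 10 of them every inhibitor gradient was above every LPS gradient.

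Ifit1, with 463 codons, peaked deeper. Fraction 14 held 19.9 ± 5.41% of its profile in LPS+ET+KU and 18.5 ± 6.65% in LPS, and its level there was 960 CPM against 175 CPM. The peak lay in fraction 13 or 14 in all 12 gradients. Rsad2, with 362 codons, had its highest mean share in fraction 13 in LPS+ET+KU, where its level was 136 CPM against 26.95 CPM in LPS. Ifit1 and Rsad2 were above LPS in 13 of 13 fractions, without overlap in 11 and 10 of them.

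**Figure D3:**
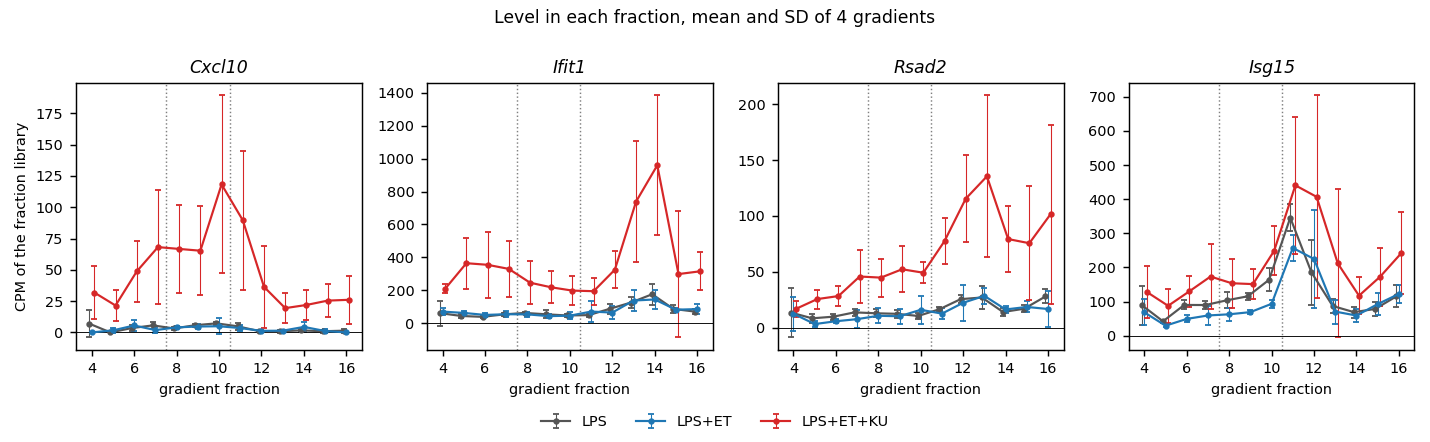
Level (CPM of the single-fraction library) of Cxcl10, Ifit1, Rsad2 and Isg15 in fractions 4 to 16 in the 3 treatments, as the mean and SD of 4 gradients, with dotted lines between monosomes, light and heavy polysomes. The LPS+ET+KU curves of Cxcl10, Ifit1 and Rsad2 lie above the LPS curves in all 13 fractions, with peaks at fractions 10, 14 and 13, and Isg15 (161 codons) peaks at fraction 11 in each treatment.

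A change of shape was tested apart from level, as the interaction of treatment and fraction with a term for each gradient. Between LPS+ET+KU and LPS, Cxcl10 (edgeR adjusted p 0.668), Ifit1 (0.11), Rsad2, Oasl1, Isg15, Mx1 and Bst2 did not pass. Ifit2 (edgeR adjusted p 2.73e-07), Rtp4 (7.21e-06) and Ifit3 (0.00693) did, 3 of 10 against 11.0% of the genes tested. Cxcl10 met the filter of this test only through the LPS+ET+KU libraries, where it was high. Its LPS profile rests on 34 to 52 counts per gradient over 13 fractions, so its result cannot show an unchanged shape. Ifit2 (470 codons) had 28.6 ± 4.26% of its profile in monosomes in LPS, 25.6 ± 3.23% in LPS+ET and 39.99 ± 2.08% with the inhibitor. Its highest fractions in LPS+ET+KU were 5, 4, 6 and 5 in the 4 pools, and fraction 5 held 14.2 ± 2.29%, against 7.66 ± 1.76% in LPS. The level in fraction 5 was 93.7 ± 38.4 CPM in LPS+ET+KU and 26.6 ± 7.14 CPM in LPS, whereas in fraction 11 it was 27.8 ± 6.08 and 25.3 ± 6.79 CPM. In fraction 15 it was 86.4 ± 33.8 and 23.4 ± 15.2 CPM. The share in light polysomes was 26.03 ± 3.46% in LPS and 16.1 ± 3.19% in LPS+ET+KU.

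Some single-fraction libraries were thin, 12 of the 156 holding under 100000 counts. The fraction 4 libraries of LPS held 42937, 419646, 17629 and 14724 counts, and those of fraction 15 of LPS+ET+KU held 60143, 124284, 593423 and 338837. The Ifit2 interaction passed without fractions 4 and 15 (adjusted p 2.09e-06), without the libraries under 100000 counts (8.38e-07) without pool LUL16 (5.34e-07) and without any 1 gradient (at most 0.000109), but not in the model without a gradient term (0.0253). Rtp4 had its highest fraction at 4, 6, 4 and 4 in LPS+ET+KU, with 14.1 ± 3.30% of its profile in fraction 4 against 4.50 ± 3.97% in LPS. Its call was lost without fractions 4 and 15 (adjusted p 0.198) and in the model without a gradient term (0.307), and it held without pool LUL16 (5.81e-05).

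Ifit3 lost its call without fractions 4 and 15 (0.569), without pool LUL16 (0.0264), without the thin libraries (0.0175), with library totals in place of TMM factors (0.0156) and with no gradient term (0.694). It also lost it without the LPS gradient of pool LUL15 (0.0934), LUL17 (0.0133) or LUL18 (0.0135) and without the LPS+ET+KU gradient of pool LUL15 (0.0274), LUL16 (0.0199) or LUL18 (0.0854). Without the LPS+ET+KU gradient of pool LUL17, Ifit1 (2.74e-05) and Oasl1 (8.25e-06) passed.

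**Figure D4:**
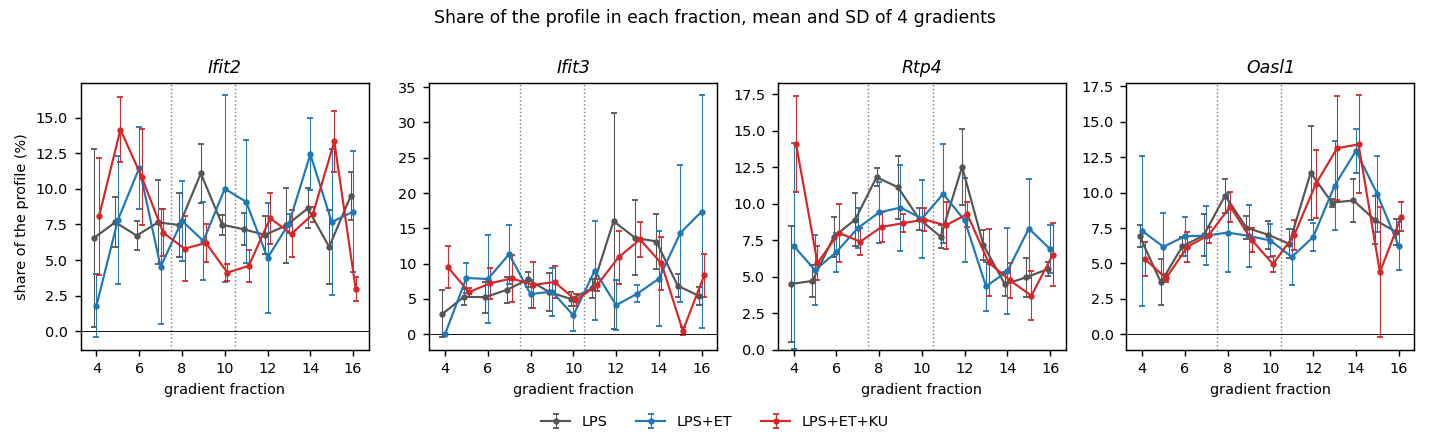
Share (%) of each gene's profile in fractions 4 to 16 for Ifit2, Ifit3, Rtp4 and Oasl1 in the 3 treatments, as the mean and SD of 4 gradients. In LPS+ET+KU fraction 5 holds 14.2% of the Ifit2 profile against 7.66% in LPS, and fraction 4 holds 14.1% of that of Rtp4 against 4.50%.

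Between LPS+ET and LPS only Oasl1 (511 codons) passed the test of shape (edgeR adjusted p 0.00765, against 5.72% of genes, Cxcl10 being under the filter here). Fraction 14 held 13.0 ± 1.54% of Oasl1 in LPS+ET and 9.45 ± 1.51% in LPS, and fraction 12 held 6.87 ± 0.997% against 11.4 ± 3.30%. The call was lost in the model without a gradient term (0.325), with library totals in place of TMM factors (0.0511), and when a single gradient was left out, except LPS+ET of pool LUL17. The values without LPS of pools LUL15 to LUL18 were 0.0639, 0.0337, 0.0293 and 0.0423, and without LPS+ET of pools LUL15, LUL16 and LUL18 they were 0.0757, 0.0213 and 0.058. Without all of pool LUL16 the value was 0.0542.

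RiboLoad, the fraction of an mRNA that is carried by heavy polysomes, was compared as a single number per gradient. No member passed in either comparison (0 of 10 also at an unadjusted p under 0.05), nor did any of the 8000 genes tested with limma (0% called at 0.01, with 177 genes at an unadjusted p under 0.05 in LPS+ET against LPS and 737 in LPS+ET+KU against LPS). The counts as deposited placed 50.4, 52.8, 59.1 and 61.5% of Ifit2 in heavy polysomes in LPS and 38.4, 41.6, 45.4 and 37.9% in LPS+ET+KU, with no overlap. The difference on the logit scale was -0.61 (limma adjusted p 0.606, with the replicate block 0.203, without pool LUL16 -0.66 at 0.0703), and all genes together had medians of 64.3% and 56.4% in these groups. With the fractions weighed equally the Ifit2 shares overlapped, at 39.4 to 48.2% in LPS and 39.9 to 48.2% in LPS+ET+KU, and the medians of all genes were 55.2% and 54.7%. Ifit1 went from 67.6, 71.8, 69.9 and 77.4% in LPS to 56.2, 58.2, 63.0 and 62.7% in LPS+ET+KU as deposited (logit difference -0.53, adjusted p 0.631). When fractions were weighed equally its shares overlapped, at 56.4 to 67.6% in LPS and 56.1 to 64.8% in LPS+ET+KU (logit difference -0.11, limma adjusted p 0.734). With equal weights no member was called either, but Isg15 had 52.6 to 58.8% in LPS and 64.4 to 66.9% in LPS+ET, with no overlap (logit difference 0.42, SE 0.12, limma adjusted p 0.0788). How common such a separation of heavy polysome shares was among all genes was not counted, here or for Ifit2 as deposited. With Cxcl10, Mx1 and Bst2, Isg15 made 4 of 10 members at an unadjusted p under 0.05 in LPS+ET against LPS. In LPS+ET+KU against LPS there were 0. Of the 8000 genes, 1646 and 1668 were under it in these 2 comparisons with equal weights. Cxcl10 met the count filter of RiboLoad only through its 240 to 977 counts per gradient in LPS+ET+KU. It had 34 to 52 in LPS and 24 to 48 in LPS+ET, so its place among the 4 rests on few counts. Without pool LUL16, 213 of 7830 genes passed in LPS+ET+KU against LPS and 33 in LPS+ET against LPS, with no member among them.

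The members differed among themselves in where they sat. In LPS+ET+KU, with fractions weighed equally, 13.2% of genes had a lower heavy polysome share than Cxcl10, 15.1% than Bst2 and 19.2% than Mx1, against 60.3% for Isg15, 64.5% for Ifit1 and 83.5% for Rsad2. The longest annotated reading frames have 98 codons for Cxcl10, 172 for Bst2, 161 for Isg15 and 627 for Mx1. The Mx1 figure need not hold in mice whose Mx1 gene lacks exons. The part of length in this order was not tested.

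The other genes of the interferon pathway were taken as lists, whose counts are read against the same background (7.88% of genes higher and 4.81% lower in LPS+ET, 6.25% higher and 4.42% lower in LPS+ET+KU). Of 21 interferon genes listed only Ifng was in the table, below the filter, so the ligands were not analysed here. Among 9 receptors and signal transducers none was called in LPS+ET (edgeR), and Jak1 was called lower in LPS+ET+KU (log2 -1.17, adjusted p 0.00429). Irf9 was at 0.40 and 0.47 in the 2 comparisons, Ifnar1 at 0.34 and 0.61, Ifngr1 at 0.54 and 0.66, and Ifngr2 at -0.20 and -0.06, none of them called. Stat2 was at -0.75 in LPS+ET (adjusted p 0.0445, with the replicate block 0.00205) and 0.16 in LPS+ET+KU. In LPS+ET, 2 of the 9 had an unadjusted p under 0.05, as had 4384 of all 12755 genes. DESeq2 called 1 of the 9, and 2391 of 15357 genes. The replicate block gave 1 higher and 2 lower, against 13.9% and 12.8% of all genes. In LPS+ET+KU the block gave 2 higher, Ifngr1 (0.67, adjusted p 0.00257) and Jak2 (0.73, 0.000772), and 1 lower, Jak1. Of all genes it called 14.9% higher and 13.3% lower there.

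Of 7 interferon regulatory factors, Irf7, which amplifies the response, was called higher in LPS+ET+KU (1.39, adjusted p 0.00777). Its levels were 58.5, 51.3, 29.7 and 39.3 CPM in LPS, 63.0, 70.3, 36.9 and 40.8 in LPS+ET, and 189, 60.4, 122 and 140 in LPS+ET+KU. The inhibitor gradients lay above all LPS gradients, and that of pool LUL16 lay below the highest pair of LPS+ET gradients. The Irf7 call was lost without any 1 gradient other than LPS+ET+KU of pool LUL16 (adjusted p 0.0157 to 0.0274), with equal weights (1.05, 0.0581) and when the 8 compared gradients were fitted alone (0.0154). It held with the replicate block (0.00112) and without pool LUL16 (1.72, 0.000865). In each comparison 3 of the 7 were lower, and Irf8, a factor of the B cell and myeloid lineages, had the lowest value of the list in both (-1.99, adjusted p 0.000251, and -1.68, adjusted p 0.00114). Irf1 passed in neither (0.35 and 0.46), but with the replicate block it passed in LPS+ET+KU (0.46, adjusted p 0.00995). It was the second of 2 called higher there, against 14.9% of all genes.

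**Figure D5:**
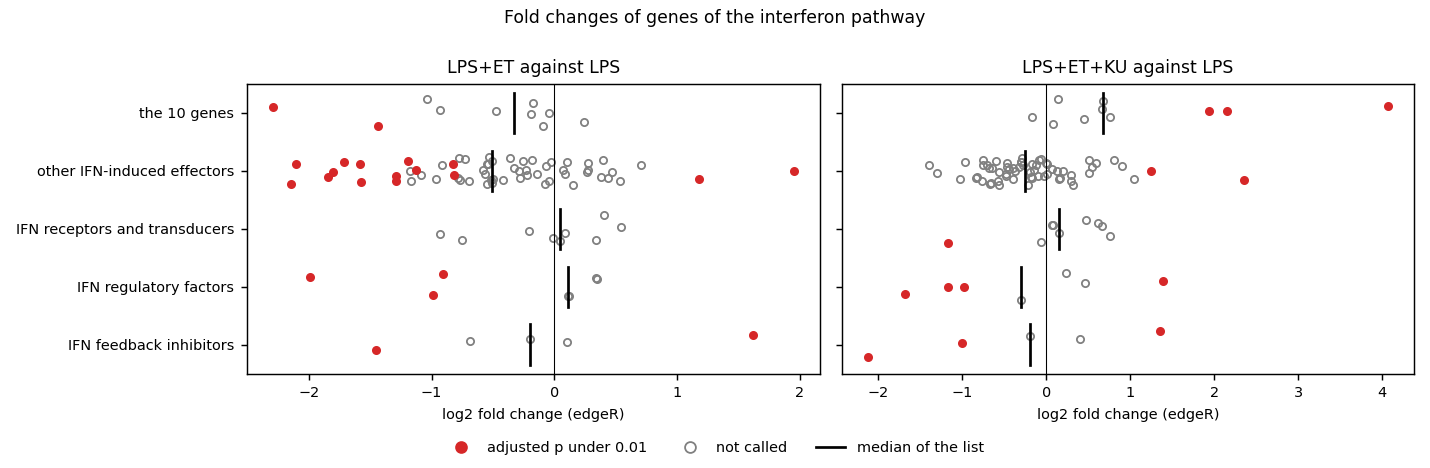
Log2 differences from LPS of the 10 genes and of 4 lists of pathway genes, for LPS+ET and LPS+ET+KU, each point 1 gene, filled red where the edgeR adjusted p was under 0.01, with a black bar at the list's median. The other interferon-induced effectors have medians of -0.51 and -0.25, below those of all genes (0.03 and 0.09), whereas the 10 genes have medians of -0.33 and 0.67.

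Among 62 other interferon-induced effectors that were tested, 2 were higher and 13 lower in LPS+ET. In LPS+ET+KU edgeR called 2 higher and 0 lower. At an unadjusted p under 0.05 there were 15 lower, where 4584 of 12755 genes changed in either direction. DESeq2 called 8 lower, and 1072 of 13839 genes. The falls in LPS+ET were led by Ifit3b (log2 -2.14, adjusted p 0.000505), whose level was 9.49 ± 1.75 CPM in LPS, 2.35 ± 1.06 in LPS+ET and 9.18 ± 3.45 with the inhibitor (SD, n = 4). Parp10 led the rises in LPS+ET (1.95, adjusted p 0.000199). The largest rise in LPS+ET+KU was Ccl5, another secreted chemokine (2.35, edgeR adjusted p 2.15e-05), at 30.5 ± 2.42 CPM in LPS, 39.9 ± 14.0 in LPS+ET and 169 ± 20.3 with the inhibitor. The other, Parp10 (1.24, adjusted p 0.0051), was lost without any 1 gradient other than LPS+ET+KU of pool LUL16 (up to 0.019). The list's median was -0.51 in LPS+ET and -0.25 with the inhibitor, where all genes had 0.03 and 0.09. With the replicate block the counts were 3 higher and 23 lower in LPS+ET (13.9% and 12.8% of all genes) and 5 higher and 13 lower in LPS+ET+KU (14.9% and 13.3%). The Ifit3b call was lost with equal weights (-1.11, limma adjusted p 0.0599).

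Of 5 feedback inhibitors, 1 was higher and 1 lower in LPS+ET, and 1 higher and 2 lower in LPS+ET+KU. Socs1, which blocks the Jak kinases, was higher in LPS+ET (1.62, edgeR adjusted p 0.00226) and in LPS+ET+KU (1.35, adjusted p 0.00821). The latter was lost without any 1 gradient other than LPS+ET+KU of pool LUL16 (up to 0.0276), and both were lost with equal weights (0.0153 and 0.057). Ptpn6, a tyrosine phosphatase, was lower in both (-1.45, adjusted p 0.00635, and -2.13, adjusted p 0.000809), and the first of these was lost without any 1 gradient other than LPS of pool LUL17 and LPS+ET of pool LUL16 (up to 0.0253). Usp18, which removes Isg15 from proteins, was at 0.10 and 0.40 and was not called. The Jak1 call in LPS+ET+KU was lost without any 1 gradient other than those of pool LUL16 (up to 0.0159).

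Markers of cells that could accompany B cells in the isolation were set beside these results. The summed level of 14 myeloid markers was 59.9 to 118 CPM in LPS, 106 to 218 in LPS+ET and 109 to 162 with the inhibitor. That of 4 plasmacytoid dendritic cell markers was 17.6 to 30.0, 12.6 to 46.4 and 20.3 to 117 CPM, and that of 8 T and NK cell markers 0.651 to 3.91, 1.54 to 3.28 and 1.13 to 7.32 CPM. No marker was at 0 in all gradients of a group, but the defining markers Siglech and Cd3e never exceeded 0.310 and 0.435 CPM. The myeloid marker Cd14 was at 0.362 to 0.669 CPM in LPS, 1.28 to 4.19 in LPS+ET and 4.62 to 16.4 in LPS+ET+KU, without overlap. The larger Lyz2 (7.96 to 76.3 in LPS+ET, 6.53 to 48.8 in LPS+ET+KU) and Fcer1g (43.6 to 79.3 and 45.6 to 59.7) overlapped between those groups. The highest plasmacytoid value was that of the pool LUL16 gradient of LPS+ET+KU (of which Pacsin1 was 72.6 CPM). The part of these cells in the levels of the 10 genes was not tested.

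The genes whose levels ran most like Cxcl10 and Ifit1 over the 12 gradients were sought by Pearson's r of log2 CPM among 9375 genes, as a description, since gradients of a pool and of a treatment share their source. The members were chosen for a rise in the same LPS+ET+KU gradients, so their likeness to each other restates that choice. For Cxcl10 the most similar gene was Ifit1 (r = 0.99), and Rsad2 had rank 4 (0.95). The 5 genes outside the members were Atf3 (0.98), B3gnt7 (0.96), Snhg12 (0.94), Dusp4 (0.92) and Ccl5 (0.92). For Ifit1 they were Atf3 (0.97), B3gnt7 (0.95), Snhg12 (0.94), Ccrl2 (0.92) and Dusp4 (0.91). The levels of Atf3, a stress-induced transcription factor, were 43.5 ± 2.39, 46.9 ± 4.55 and 98.4 ± 13.7 CPM in LPS, LPS+ET and LPS+ET+KU, and those of Ccrl2, a chemerin receptor, 19.1 ± 3.80, 39.1 ± 11.6 and 190 ± 53.7 CPM. Among the members the least like Cxcl10 were Ifit3 (r = 0.41, rank 1290) and Mx1 (0.42, rank 1214).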

How the data were processed

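Splenic B cells were fractionated on sucrose gradients and the 3′ ends of mRNAs sequenced per fraction. The authors aligned reads to GRCm38/mm10 (the submitters' notes name TopHat2 2.0.12, HTSeq and DESeq2 1.6.3) and deposited raw counts per gene and fraction. Of 157 columns, 79 were matched to single samples and 78 to a treatment and fraction. The members and lists were chosen with earlier results of these data known. Fractions 4 to 16 of each gradient were added up and fitted over all 12 gradients with edgeR 4.0.16 (TMM, filterByExpr, quasi-likelihood test, Benjamini-Hochberg adjusted p under 0.01) in R 4.3.3. RiboLoad used limma 3.58.1 on logit shares (0.5 counts added) of genes averaging at least 100 counts. Scripts were tested on simulated data. Alternatives were DESeq2 1.42.0, other factors, filters, weights and thresholds, a replicate block and left-out gradients. Leaving out pool LUL16, fractions 4 and 15 and thin libraries was chosen after the data were seen. Pools pair the gradients: deviations from group means correlated at 0.305 to 0.799 in all 12 same-pool pairs (different pools -0.628 to 0.284). The study calls its 4 replicates biological, but the sources used here do not say whether each gradient came from separate mice, and p-values measure the spread between gradients. All 10 members are named, with likeness taken over genes averaging at least 50 counts, and from the lists the receptors, Stat2, Irf9, Irf7, Irf1, Usp18, Socs1 and the called genes that changed most. Other called genes were named after their values were seen. A gene of the transducer list that the rule names is not reported here. Counting error alone limits genes of few counts.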

Additional observations from a re-analysis of the deposited data

Results flagged for a closer look

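In groups of 4 gradients, 8 of the 60 sets of values tested (levels and heavy polysome shares of the 10 genes in 3 treatments) had 1 gradient whose gap to its nearest partner exceeded the critical value of Dixon's test for 4 values, and chance alone gives about 1 in 20. Rtp4 in LPS+ET+KU was at 38.3 CPM in pool LUL16, where the other 3 gradients were at 124 to 139 CPM. Ifit2 in LPS was at 16.5 CPM in pool LUL16, against 30.6 to 32.6 CPM. Ifit1 in LPS+ET was at 58.4 CPM in pool LUL18, against 77.9 to 80.4 CPM. Mx1 in LPS was at 30.0 CPM in pool LUL15, against 19.4 to 20.1 CPM. The heavy polysome share of the LPS+ET gradient of pool LUL16 was 50.8% for Oasl1 (others 67.0 to 69.3%), 34.7% for Isg15 (others 78.3 to 85.9%) and 25% for Rtp4 (others 57.4 to 61.9%). In that gradient heavy polysomes held 30.4% of all counts, the lowest share of the 12 gradients. Ifit3 in LPS had 73.7% of its counts in heavy polysomes in pool LUL18, against 63.5 to 65.2%.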

How the results depend on the processing

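Leaving out single gradients moved the calls of Ifit2 and Ifit3 in LPS+ET across the threshold, and fractions with few counts limit the profiles. The genes called were 1618 between LPS+ET and LPS (replicate block 3403, threshold 0.05 2875, 1 gradient left out 1082 to 1761), and 1361 between LPS+ET+KU and LPS (DESeq2 2263, block 3589, 0.05 2903, left out 755 to 1708). Between LPS+ET+KU and LPS+ET they were 58 (DESeq2 412, block 811, equal weights 21, 0.05 319, without pool LUL16 275, left out 19 to 172, and with the 8 compared gradients alone edgeR gave 0, with 1603 at an unadjusted p under 0.05). In monosomes they were 850 for LPS+ET (block 2195, left out 520 to 759) and 532 for LPS+ET+KU (DESeq2 911, block 2068, left out 258 to 661), and in heavy polysomes 1101 (DESeq2 1761, block 2338, without pool LUL16 1722, left out 721 to 1364) and 904 (DESeq2 1645, block 2433, without pool LUL16 1534, left out 457 to 1106). RiboLoad gave 0 for both (scaled fractions 25 and 69, block 18 and 58, without pool LUL16 33 and 213, left out 0 to 1 for LPS+ET), with no member called in any of these. The test of shape gave 593 and 1132 (no gradient term 142 and 339, left out 236 to 689 and 439 to 2426), and 687 in place of 1132 without fractions 4 and 15. Members called lower in LPS+ET were 2 (block 4, equal weights 0, left out 0 to 2), in monosomes 0 (block 4, without pool LUL16 1) and in heavy polysomes 2 (without pool LUL16 1, left out 0 to 3). Members called higher in LPS+ET+KU were 3 (block 5), and in monosomes 2 (no filter 4, block 5, without pool LUL16 4, left out 2 to 4). Values near 0 changed sign between LPS+ET and LPS for Ifit1 with equal weights (0.0142), Bst2 without pool LUL16 (0.0285, left out -0.1563 to 0.0611) and Cxcl10 (left out -0.2240 to 0.0051), for the Isg15 RiboLoad logit difference (left out -0.0120 to 0.8012), and between LPS+ET+KU and LPS for Ifit3 without pool LUL16 (0.0806, left out -0.4677 to 0.0732) and Rtp4 with the block (-0.0562, left out -0.1011 to 0.3643). The cause was not tested. Of 1482 single-gene values under alternatives, 1281 kept their direction and side of the threshold, 163 lost the call, 27 gained one and 11 changed sign. In the comparisons with LPS, the replicate block changed no call of a member other than those given beside the results.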
